A study of Mus musculus with 2 samples.

Results

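The barcodes described here are those with at least 50 and under 500 unique molecular identifiers (UMIs, 1 per captured transcript) in 2 inDrop libraries of mouse embryonic stem (ES) cells. They were chosen by their UMI total alone. They number 6746 of the 10389 barcodes in both libraries (64.9%), namely 2438 of 4329 in the wild-type library (56.3%) and 4308 of 6060 in the *Lin28a* knockout library (71.1%), and are called shallow barcodes. Their summed profile was set beside that of the deep cells of the same library, which are the barcodes with at least 2000 UMIs and at most 20% of UMIs on genes of the mitochondrial genome. There were 1642 wild-type and 1110 knockout deep cells.

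Both libraries came from ES cells derived from the inner cell mass, grown for 2 days in LIF/2i medium on gelatin with mouse embryonic fibroblasts as feeder cells. The labels give the wild-type cells as untreated. By the study's text each genotype was 1 clone, the wild-type clone one that had been transfected, and the knockout clone was made with CRISPR/Cas9 directed at *Lin28a*, which encodes an RNA-binding protein. Each clone gave 1 library. The study's own limit for a cell was 500 UMIs, so shallow barcodes lay below it. With 1 library per genotype no test was possible. The intervals given are exact 95% intervals that cover counting error only, and genotype cannot be told apart from any other difference between the 2 cultures.

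In droplet sequencing each barcode marks 1 droplet, and a droplet without a cell still captures RNA that is free in the suspension. A droplet with few UMIs can hold free RNA, a broken or dying cell, or an intact cell that was poorly captured. Messenger RNAs of ribosomal proteins (RP) lie in the cytoplasm, transcripts of the mitochondrial genome inside mitochondria, and some long non-coding RNAs (lncRNAs) such as *Malat1* in the nucleus, so the shares of these classes are often read when barcodes are judged. What any of the barcodes held was not tested.

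Shallow barcodes were many and held few of the UMIs. They carried 437650 UMIs in the wild-type library, 3.62% of its total, and 668439 UMIs in the knockout library, 6.67% of its total. The median was 148 UMIs and 132 genes per wild-type barcode and 131 UMIs and 119 genes per knockout barcode. Deep cells had a median of 6492.5 and 7285 UMIs, and none with at least 2000 UMIs was over the mitochondrial limit. Both distributions had a low and a high mode with few barcodes between them, since 215 wild-type and 527 knockout barcodes had 500 to under 2000 UMIs. Barcodes that both libraries share could not be counted, because the barcodes are named by number and not by sequence.

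**Figure D1:**
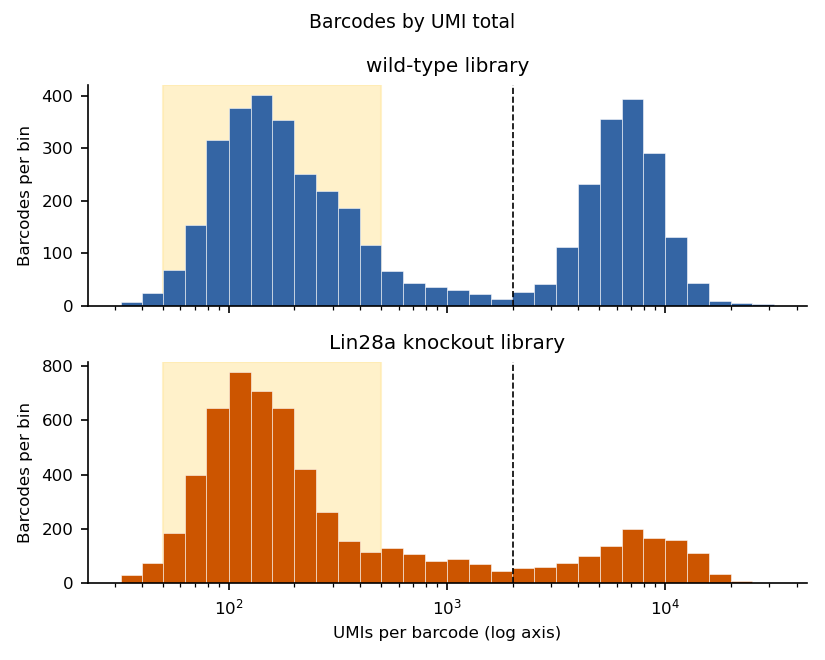
Number of barcodes (y axis) by UMIs per barcode (x axis, log scale) in the wild-type library (top) and the *Lin28a* knockout library (bottom); the shaded band marks the shallow barcodes and the dashed line the lower limit of the deep cells. Both libraries show a mode within the band, around the medians of 148 and 131 UMIs, and another above the dashed line.

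The limits cut through a continuous range. Just inside the lower limit, at 50 to under 60 UMIs, mitochondrial transcripts took 4.35% of wild-type and 9.66% of knockout UMIs, and just outside it, at 40 to under 50 UMIs, 6.57% and 12.5%. Just inside the upper limit, at 480 to under 500 UMIs, RP transcripts took 7.54% and 11.3%, and just outside it, at 500 to under 520 UMIs, 8.22% and 11.9%.

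*Lin28a* (ENSMUSG00000050966.9, GRCm38 chromosome 4 from 134003330 to 134018841, minus strand) was read first, as a check of the labels. It had 109 UMIs in wild-type shallow barcodes, 249 CPM (UMIs scaled to a profile total of 1e6), and 63 UMIs in knockout shallow barcodes, 94.2 CPM. The ratio of knockout over wild-type was 0.378 (0.273 to 0.521), and it was 0.340 (0.300 to 0.385) in deep cells. In both depths the library labelled knockout had the lower level and was not at 0. The guide RNA was aimed at the second exon, and UMIs from outside an edited stretch would check nothing. *Lin28a* was also higher in shallow barcodes than in deep cells, with a log2 ratio of 1.23 in wild-type and 1.38 in knockout barcodes.

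The shallow profile held fewer RP and more mitochondrial transcripts than the deep profile in both libraries. RP mRNAs took 6.55% of UMIs in wild-type shallow barcodes and 11.0% in deep cells, a ratio of 0.596 (0.589 to 0.603). In the knockout library they took 7.30% and 12.1%, a ratio of 0.603 (0.597 to 0.608). Mitochondrial transcripts moved the other way and took 2.98% against 1.34% in the wild-type library, a ratio of 2.23 (2.19 to 2.27). In the knockout library they took 4.60% against 1.73%, a ratio of 2.66 (2.63 to 2.70). The deep value is bounded by the mitochondrial limit, although the highest share in a deep cell was 8.63% in wild-type and 16.3% in knockout barcodes, both below it.

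Nuclear lncRNAs were higher and transcripts of the ES list lower. The 16 nuclear lncRNAs took 0.823% against 0.610% of UMIs in the wild-type library, a ratio of 1.35 (1.30 to 1.40), and 0.584% against 0.300% in the knockout library, or 1.95 (1.88 to 2.01) times the deep share. The 25 genes of the ES list, mostly pluripotency factors, stood at a ratio of 0.808 (0.778 to 0.838) and 0.825 (0.801 to 0.850). The 26 feeder genes, mostly collagens and other matrix or contractile genes of fibroblasts, had a ratio of 0.984 (0.910 to 1.06) in the wild-type library and 1.48 (1.38 to 1.60) in the knockout library. The feeder ratio depends on a few deep cells, which are described with the collagen transcripts.

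Gene by gene, 7026 genes passed a filter of a mean of 20 CPM over the 4 profiles, and a gene was called when its ratio of CPM, with 0.5 added to each count, was at least 2-fold. In the wild-type library 650 genes were called higher (9.25%) and 706 lower (10%), and in the knockout library 680 higher (9.68%) and 509 lower (7.24%). The interval of the ratio lay wholly beyond 1 for 646 and 683 of the wild-type calls and for all 680 and 509 knockout calls. In both libraries together 521 genes were called higher and 270 lower, and none was called in opposite directions. The log2 ratios of the libraries had a Pearson correlation of 0.848 across the 7026 genes, which are not independent replicates and share the depth and handling of each library. The median log2 ratio of all genes was −0.19 in wild-type and −0.08 in knockout barcodes. With median of ratios scaling it became 0.04 and 0.03, and the share of calls that were higher went from 47.9% to 67.1% and from 57.2% to 66.6%. Changes are therefore read against the median of all genes. The filter matters too, since a gene of low deep level passes only where it is high in shallow barcodes. With a mean of 20 CPM over the 2 deep profiles alone, 6831 genes were left beside 73 set apart by position and deep level. Of the 6831, 253 were higher and 859 lower in the wild-type library, and 302 and 626 in the knockout library. Of the 73, 27 were higher in each library and 4 and 3 lower.

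**Figure D2:**
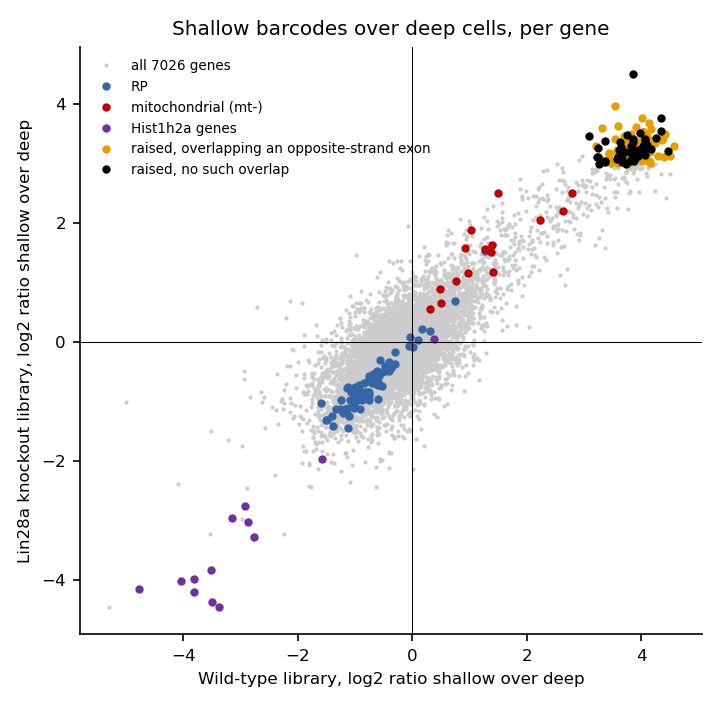
Log2 ratio of CPM, shallow barcodes over deep cells, for each of the 7026 genes in the wild-type library (x axis) and the knockout library (y axis), with gene groups coloured as in the key. RP genes sit below 0 in both libraries apart from a few such as *Rpl5*, mitochondrial genes above 0, most *Hist1h2a* genes at the lower left, and the raised transcripts, picked for being at least 8-fold higher in both, at the upper right.

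All 84 RP genes passed the filter, and 78 were under 0 in each library. Of them 28 in wild-type and 19 in knockout barcodes were called lower, and 18 in both, with a median log2 ratio of −0.86 and −0.83. Among the 18 were *Rps29* (−1.50 and −1.30), *Rps28* (−1.38 and −1.41), *Rpl38* (−1.49 and −1.30) and *Rpl27a* (−1.21 and −1.19). *Rps28* illustrates the depth behind these values, with 319 UMIs in wild-type and 581 in knockout shallow barcodes against 21725 and 20473 in deep cells. *Rpl5*, a large subunit protein that binds the 5S ribosomal RNA, was the 1 RP gene called higher, at 1.26 and 1.54, or 302 and 596 UMIs in shallow barcodes. Many RP genes have processed pseudogenes that share their sequence, so the split of UMIs between copies is uncertain. Processed pseudogenes of all genes together were lower too, at 7.67% against 10.9% of UMIs in wild-type and 9.41% against 12.9% in knockout barcodes.

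The 2 parts of the respiratory chain moved apart. Of 12 mitochondrially encoded proteins past the filter (of 13), 7 in wild-type and 9 in knockout barcodes were called higher and none lower, with a median of 1.32 and 1.35. *mt-Cytb*, the cytochrome b of complex III, had 1007 and 2887 UMIs in shallow barcodes and log2 ratios of 2.24 and 2.06. *mt-Nd6*, the complex I subunit encoded on the other strand of the mitochondrial genome from the rest, was at 2.63 and 2.20, whereas *mt-Nd1* was at 0.31 and 0.57. The mitochondrial ribosomal RNAs *mt-Rnr1* and *mt-Rnr2* were at 0.92 and 1.02 in the wild-type library and 1.58 and 1.88 in the knockout library.

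Respiratory chain subunits encoded in the nucleus were lower. Of 34 such genes, all past the filter, 9 in wild-type and 12 in knockout barcodes were called lower, 8 in both and none higher, with a median of −0.80 and −0.81. *Ndufa4*, now assigned to complex IV, was at −1.49 and −1.64, with 70 and 119 UMIs in shallow barcodes against 5184 and 4948 in deep cells. The complex III subunits *Uqcrq* (−1.35 and −1.26) and *Uqcr11* (−1.30 and −1.28) and the complex IV subunit *Cox7b* (−1.25 and −1.03) were also among the 8. Like RP mRNAs these are read in the cytoplasm, and the median of both lists lay below that of all genes in each library.

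Lists of splicing and translation factors were closer to the median of all genes than RP genes were. None of 26 splicing factors was called in either library, with medians of −0.32 and −0.13, and of 24 translation factors none was called in wild-type and 1 in knockout barcodes, with medians of −0.48 and −0.32. Hosts of small nucleolar RNAs were about as low as RP genes, with medians of −0.84 and −0.88. Of the 8 past the filter (of 14), all were under 0 and 3 were called lower in each library, among them *Zfas1* (−1.03 and −1.22) in both. In other lists single members were called in both libraries. *Pfn1*, which encodes the actin-binding protein profilin, was higher (1.26 and 1.35, with 3491 and 5606 UMIs in shallow barcodes), while *Tuba1c* (−1.33 and −1.46), *Hspe1*, the mitochondrial co-chaperonin (−1.23 and −1.29), *Mcm3*, part of the replicative helicase (−1.14 and −1.07), and the early response gene *Ier2* (−1.14 and −1.27) were lower. No gene of the feeder chemokine, 2-cell (2C) or blood and immune lists passed the filter.

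The genes that stood lowest in both libraries were mostly of 1 histone gene family. Of the 12 lowest, 9 were *Hist1h2a* genes, which encode histone H2A in S phase. *Hist1h2ai* had 8 and 18 UMIs in shallow barcodes against 3664 and 3977 in deep cells, with log2 ratios of −4.04 and −4.02, and *Hist1h2ag* was at −4.76 and −4.15. These genes are near-identical copies, so single members are uncertain. *Hist1h2ao*, for which the files list 252 and 314 ambiguous UMIs, was at 0.38 and 0.06. Summed over 15 *Hist1h2a* genes, the ratio was 0.201 (0.186 to 0.216) in wild-type and 0.167 (0.157 to 0.177) in knockout barcodes. The sums of other families were nearer to 1, on few UMIs. *Hist1h2b* genes were at 0.585 (0.300 to 1.03) and 0.596 (0.322 to 1.02), and *Hist1h3* genes at 0.471 and 0.644. *Hist1h1* genes were at 0.307 and 0.898 (0.643 to 1.22), and *Hist1h4* genes at 0.469 and 0.219, on 6 and 3 UMIs. Of the replication histone list, 8 of 20 genes passed the filter and 5 were called lower in both libraries. The other 3 of the 12 lowest were *Dynlt1c*, 1 of 4 near-identical copies of a dynein light chain gene, at −3.53 and −3.22, the overlapping transcript *AC161456.1*, the lowest of all at −5.30 and −4.46 with 1 and 4 UMIs against 1545 and 1307, and *Ttll3*, at −2.97 in each. Summed over the 4 *Dynlt1* copies the ratio was 0.536 (0.478 to 0.599) and 0.506 (0.464 to 0.550), nearer to 1 than that of *Dynlt1c* alone.

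*Malat1* (ENSMUSG00000092341.2, chromosome 19 from 5795690 to 5802672, minus strand) is a nuclear lncRNA that is abundant in most cell types. It had 2578 UMIs in wild-type shallow barcodes, 5891 CPM (5665 to 6122), against 51340 UMIs and 4485 CPM in deep cells, a ratio of 1.31 (1.26 to 1.37). In the knockout library it had 2412 UMIs, 3608 CPM (3466 to 3755), against 14385 UMIs and 1625 CPM, a ratio of 2.22 (2.13 to 2.32). It was above the deep level in both libraries, and past 2-fold in the knockout library, where it stood at 1.99 against all cells of at least 500 UMIs. Within the nuclear lncRNA list, 12 of 16 genes passed the filter and 2 in wild-type and 5 in knockout barcodes were called higher, with medians of 0.35 and 0.58. *Xist*, the RNA that silences an X chromosome, was higher in both (2.70 and 2.55, with 136 and 144 UMIs in shallow barcodes), and so was *Gm26917* (3.25 and 3.26), which lies next to the ribosomal RNA sequence annotated on chromosome 17. *Neat1*, the scaffold of paraspeckles, was at 0.35 and 1.20, and *Kcnq1ot1* and *Meg3*, lncRNAs of imprinted loci, were at 0.00 and 0.09 and at −0.17 and −0.12. *Xist* and *Tsix* (0.36 and 0.31) lie on opposite strands of 1 locus, so UMIs of the pair are uncertain if counting did not use the strand.

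*Pou5f1* (ENSMUSG00000024406.16, chromosome 17 from 35506018 to 35510772, plus strand), the pluripotency factor OCT4, was lower. It had 196 UMIs and 448 CPM (387 to 515) in wild-type shallow barcodes against 9660 UMIs and 844 CPM in deep cells, a log2 ratio of −0.91. In the knockout library it had 344 UMIs and 515 CPM (462 to 572) against 9231 UMIs and 1043 CPM, a log2 ratio of −1.02. *Zfp42*, the naive marker REX1, was at −0.69 and −0.55, with 190 and 256 UMIs in shallow barcodes. The ES list as a whole was nearer to the rest of the genes. Of 25 genes 24 passed the filter, 1 in the wild-type library was called higher (*Sall4*, 1.10 and 0.95) and 1 in each lower (*Dppa4* in the wild-type, *Pou5f1* in the knockout library). The *Pou5f1* ratio of 0.493 lay close to the limit for a call and was 0.507 to 0.525, no longer past it, under 3 alternatives. The list's medians of −0.32 and −0.08 became −0.09 and 0.02 under median of ratios scaling, so its summed share was lower while no direction is given for its median gene.

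The genes that stood highest in shallow barcodes were of an unlike kind. At least 8-fold higher in both libraries were 122 genes (1.74% of those that passed), called raised transcripts here, and 9 genes were at least 8-fold lower. They were picked by this contrast, so their levels are a description. They took 10.7% of wild-type and 6.97% of knockout UMIs in shallow barcodes, against 0.700% and 0.686% in deep cells. Only 39 of them were protein coding (32.0%, against 84.6% of the genes that passed), while 29 were lincRNAs, 25 were annotated as antisense and 12 awaited experimental evidence (TEC). Most of the 122 passed the filter through their shallow level. The protein-coding share was not taken with a filter on the deep level alone, so it is a description. The 25 are among 48 antisense genes that passed, many of which passed through their shallow level. Of 19 antisense genes with a mean of 20 CPM in the 2 deep profiles 5 were raised.

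By the ranking over both libraries the 12 highest were *Gm37850*, *Gm45732*, *Gm29216*, *Gm47327*, *Pdzd9*, *Gm16853*, *Gm5148*, *Olfr1270*, *Gm19553*, *mt-Ts1*, *Gm16216* and *Gm26533*. The best counted of them was *Gm29216*, with 886 and 2089 UMIs in shallow barcodes against 1594 and 1209 in deep cells, log2 ratios of 3.86 and 4.52. It is a copy of mitochondrial sequence in the nuclear genome (chromosome 1 from 24615706 to 24616197, minus strand), and 479 of its 492 bases form 1 stretch identical to *mt-Co1*. Its neighbours *Gm10925* and *Gm28661*, looked up after their values were seen, are identical over 678 of 678 bases to *mt-Atp6* and over 681 of 681 bases to *mt-Co2*. Their log2 ratios were 3.37 and 3.38, and 3.09 and 3.47, whereas *mt-Co1* itself was at 1.27 and 1.57. UMIs of these copies and of the mitochondrial genes cannot be told apart by sequence over those stretches. *mt-Ts1*, a mitochondrial serine transfer RNA on the strand opposite to *mt-Co1*, had 294 and 795 UMIs in shallow barcodes.

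Many raised transcripts lay opposite another gene, a feature of position that the rule did not use. Exons of 74 of the 122 (60.7%) overlapped, on the opposite strand, an exon of another gene that passed the filter, against 789 of 6901 other genes (11.4%). Most of the 122 passed the filter through their shallow level. With genes kept by a mean of 20 CPM over the 2 deep profiles alone, 46 raised transcripts were left and 21 of them (45.7%) had such an overlap, against 572 of 6858 others (8.34%). The opposite gene had the higher level in deep cells for 73 of the 122, but raised transcripts were chosen with a low deep level, so that order says little. It was among the 703 most abundant genes that passed, at 239 CPM or more in deep cells, for 35 (28.7%) and 78 (1.13%). Overlap on the same strand was found for 5 raised transcripts (4.10%) and 176 others (2.55%). Among protein-coding genes alone the share with an opposite overlap was 66.7% of the raised and 12.1% of the others. This share and those for abundant opposite genes were not taken with the deep filter. They include genes that passed through their shallow level, so they are a description. Of the 270 genes called lower in both libraries, 16 (5.93%) had such an overlap.

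Genes were also chosen by position and deep level, whether they were raised transcripts or not. Each had a lower deep level than its opposite gene, and the other genes were not matched for level. The deep level also divides the ratio, so what goes with position alone was not tested. The 107 genes whose exons overlap a more abundant one of those 703 genes on the opposite strand had a median log2 ratio of 1.85 in wild-type and 1.63 in knockout barcodes. The 6916 other genes had medians of −0.20 and −0.08. At least 2-fold higher were 57.9% and 56.1% of the 107, against 8.49% and 8.95% of the others. Raised transcripts were among the 107. The 72 genes left without them had medians of 0.34 and 0.29, and 37.5% and 34.7% were at least 2-fold higher. For 26 genes that overlap such a gene on the same strand the medians were −0.40 and −0.28. A gene of low deep level passes the filter only where it is high in shallow barcodes, so the sets were also taken with that filter on the deep level. The medians of the 73 genes so placed then fell to 0.32 and 0.26, against −0.28 and −0.16 for 6831 others, and 27 of the 73 (37.0%) were at least 2-fold higher in each library, against 3.70% and 4.42% of the others. Of the 73 genes 15 were raised transcripts, as were 31 of the others. The 58 genes left without these 15 had medians of 0.02 and −0.08, and 12 of them (20.7%) were at least 2-fold higher in each library. The size of the difference thus depended on the filter and on the raised transcripts.

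The pair of *Gm37376* and *Malat1* is shown because *Malat1* is a named marker and both genes were well counted. *Gm37376* (chromosome 19 from 5801941 to 5802393, plus strand) is annotated as a single stretch of 453 bases, all of it within *Malat1* and opposite to it. The first 30 bases of *Gm37376* and the same positions read on the *Malat1* strand, from GENCODE M21 transcripts of GRCm38, are shown to make the pairing visible, with all letters in capitals because every base is shared by the complementary strands.
Gm37376: CTTCTTTCTCCAAATACTAGCCTAACCTTT
Malat1: AAAGGTTAGGCTAGTATTTGGAGAAAGAAG
*Gm37376* had 4359 UMIs in wild-type shallow barcodes and 6849 in deep cells, a log2 ratio of 4.06, and 1772 and 2558 in the knockout library, a log2 ratio of 3.20. Of the UMIs on either gene, 62.8% were on *Gm37376* in wild-type shallow barcodes and 11.8% in deep cells, and 42.4% and 15.1% in the knockout library. For this gene the files list 2 and 0 ambiguous UMIs. inDrop libraries keep the strand of the RNA, but whether the authors' counting used it is not given in the sources used here. The measurement is a change in the share assigned to each gene of a pair, and a read whose strand was not used could belong to either.

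Other pairs had like values and were chosen after their values were seen. *Map3k12*, a kinase gene, overlaps *Pcbp2*, which encodes an RNA-binding protein, and had 1573 and 1843 UMIs in shallow barcodes against 2766 and 2344 in deep cells (3.90 and 3.38), while *Pcbp2* was at 0.25 and 0.41. *Gm19553* lies opposite *Pou5f1* and had 62 and 89 UMIs against 90 and 98 (4.18 and 3.59), the reverse of the direction of *Pou5f1*. *Wdr38* opposite *Rpl35* was at 3.99 and 3.21 against −1.34 and −1.13. *Gm44346*, annotated as a microRNA gene, lies wholly opposite *Hist1h2an* and was at 3.65 and 3.18 against −3.51 and −3.82. In these last 3 pairs the gene on 1 strand was higher in shallow barcodes and the gene on the other strand lower, in both libraries.

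The 2 most abundant raised transcripts lay on the minus strand of the ribosomal RNA sequence annotated on chromosome 17. *CT010467.1*, annotated as ribosomal RNA (chromosome 17 from 39846353 to 39848827, minus strand), had 9883 and 9538 UMIs in shallow barcodes against 15128 and 11359 in deep cells, log2 ratios of 4.10 and 3.47. *AY036118* (chromosome 17 from 39847113 to 39848035, minus strand) had 4928 and 4339 UMIs against 8775 and 6446, at 3.88 and 3.16. The 923 bases of *AY036118* are found whole in *CT010467.1*, so UMIs of the 2 cannot be assigned between them by sequence. Its first 30 bases are shown in capitals, all of them shared.
AY036118: ATCAACGCAAGCTTATGGCCCGCACTTACT
On the plus strand of the same place lies *Gm42418*, the most abundant gene of the deep cells, which was at 0.51 and 0.95. Exons of *CT010467.1* and *AY036118* overlap it by 1822 and 923 bases, so both are among the opposite-strand pairs. Which strand of this place encodes ribosomal RNA was not tested, so the values do not show ribosomal RNA itself to be raised.

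Some raised transcripts shared sequence. On either strand of their longest transcripts, 2 groups of 4 shared stretches of 20 bases that no other tested gene held. *Gm26905* (826 and 633 UMIs in shallow barcodes), *Gm47578* (866 and 558), *4930470H14Rik* (187 and 153) and *4933427J07Rik* (169 and 132) lie on different chromosomes and shared 33 such stretches. *Gm10717*, *Gm10718*, *Gm10719* and *Gm10721*, on chromosome 9, shared 3. Exons of the last 3 also overlap, by 155 to 275 bases on the opposite strand, the lincRNA *Gm26870*, which was at 0.87 and 1.35. Their short common sequence is shown for its first such stretch, to make its position between differing neighbours visible. The stretch is in capitals and is given on the strand opposite to each gene, with 5 bases on either side.
Gm10717: ttgaaAACTTGAAAAATGACAAAATcactg
Gm10718: ttgacAACTTGAAAAATGACAAAATcagtg
Gm10719: ttgacAACTTGAAAAATGACAAAATcactg
Gm10721: ttgacAACTTGAAAAATGACAAAATcactg
*Gm10721* had 112 and 62 UMIs in shallow barcodes against 168 and 77 in deep cells, and the other 3 had 32 to 44 and 16 to 20 UMIs. Over all raised transcripts, a run of 10 A bases was found in the longest transcript of 11.5%, against 22.1% of the other genes. These transcripts were also shorter, with a median of 2162 against 3134 bases, and length was not allowed for. The run was in 9.64% against 13.5% of genes that are not protein coding, and in 15.4% against 23.6% of protein-coding genes. No annotated transcript had more than 1 exon for 23.8% of the raised transcripts, against 13.7% of the other genes. Among genes that are not protein coding the order was the reverse, at 33.7% against 81.8%, and among protein-coding genes it was 2.56% against 2.17%.

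Raised transcripts were unevenly spread over the shallow barcodes. In 1213 wild-type barcodes (49.8%) and 2563 knockout barcodes (59.5%) they took under 5% of UMIs, and in 1144 (46.9%) and 1460 (33.9%) at least 10%. These are called low-share and high-share barcodes. Between the limits lay 81 (3.32%) and 285 (6.62%). The limits were set after the shares had been seen, so each name stands for a range of this share and not for a type of barcode. A limit of 15% in place of 10% gave 37.7% of wild-type and 18.3% of knockout barcodes. The median share was 19.2% and 15.4% in high-share and 1.16% and 1.67% in low-share barcodes, and the highest share in any deep cell was 3.73%. With the genes picked in the other library alone, which include the 122, 1147 and 1570 barcodes were at or above 10%.

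**Figure D3:**
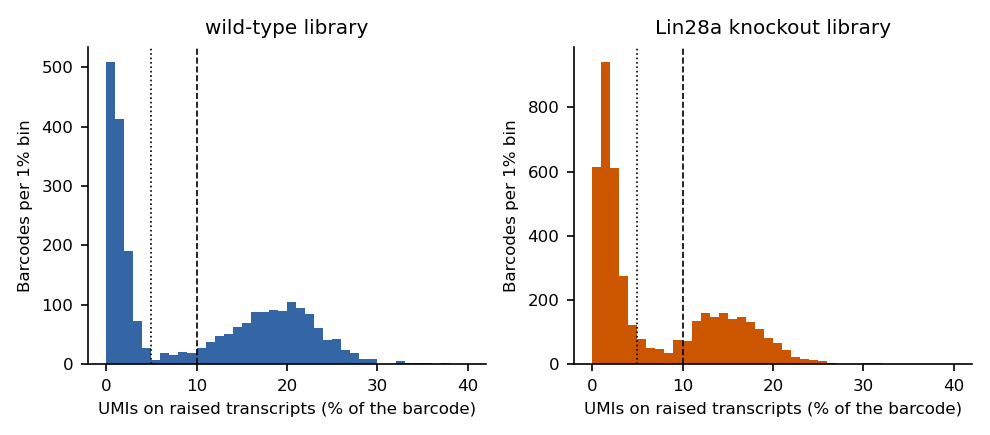
Number of shallow barcodes (y axis) by the percent of their UMIs on the 122 raised transcripts (x axis, bins of 1%) in the wild-type (left) and knockout library (right); the dotted line is at 5% and the dashed line at 10%. Both libraries show a mode under 5% and a broad mode above 10%, with 3.32% and 6.62% of barcodes between the lines.

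Among shallow barcodes, high-share barcodes did not have the fewest UMIs. Their median was 173 UMIs in wild-type and 154 in knockout barcodes, against 136 and 122 for low-share barcodes. Within the shallow range they were most frequent at 200 to under 350 UMIs, at 62.9% of wild-type and 45.3% of knockout barcodes. Below it, under 50 UMIs, 30 of 34 wild-type (88.2%) and 28 of 115 knockout barcodes (24.3%) reached 10%. Above it they numbered 22 of 147 and 5 of 320 at 500 to under 1000 UMIs. None of the 68 wild-type and 207 knockout barcodes with 1000 to under 2000 UMIs reached 10%, nor did any deep cell. A high-share barcode held a median of 32 and 24 UMIs on raised transcripts, a low-share barcode 2 and 2, and a deep cell 45 and 46, so in absolute number high-share barcodes held fewer of them than deep cells.

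The classes were not alike in the 2 ranges. Nuclear lncRNAs had no common order, at 1.51 in low-share and 1.11 in high-share barcodes for the wild type and at 1.78 and 2.22 for the knockout. *Gm26917* of that list is itself a raised transcript. With raised transcripts left out, the list stood at 1.49 and 1.30 for the wild type and at 1.78 and 2.20 for the knockout. RP transcripts were at 0.755 and 0.740 of the deep share in low-share barcodes and at 0.449 and 0.388 in high-share barcodes. Mitochondrial transcripts were at 2.73 and 3.28 in low-share and 1.71 and 1.58 in high-share barcodes. ES transcripts were at 0.908 and 0.905 against 0.715 and 0.688. Raised transcripts fill part of the total in high-share barcodes, and with them left out of the totals RP stood at 0.554 and 0.457 there, mitochondrial transcripts at 2.00 and 1.67, and ES transcripts at 0.883 and 0.810. RP transcripts were thus lower, and mitochondrial transcripts less raised, in high-share than in low-share barcodes on either total in both libraries. The mitochondrial order has 2 limits. Barcodes over 20% mitochondrial held 13.9% and 18.4% of the shallow mitochondrial UMIs, and only 0 and 2 of them were high-share. *Gm29216*, *Gm10925* and *Gm28661*, which share mitochondrial sequence, count as raised transcripts and not as mitochondrial. The order without these barcodes or with these copies was not tested.

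**Figure D4:**
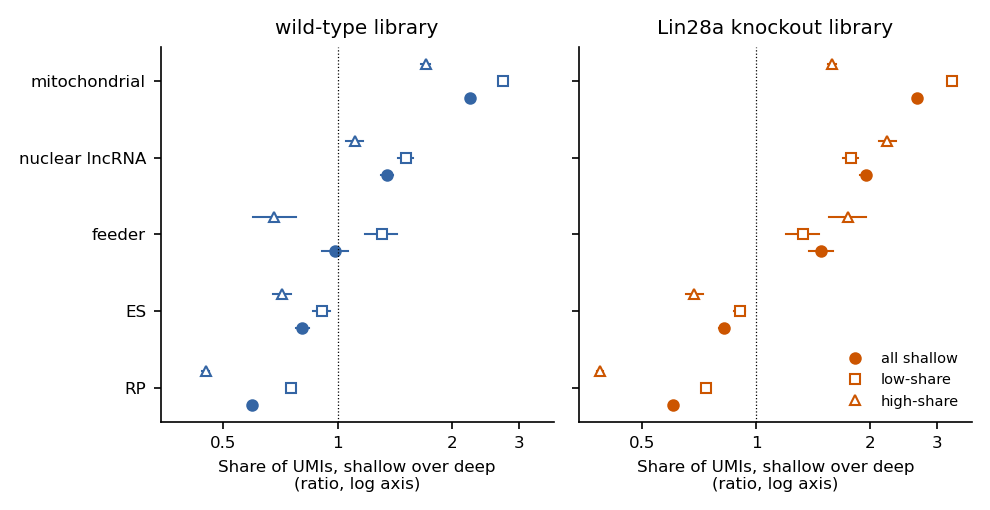
Ratio of the share of UMIs in shallow barcodes over deep cells (x axis, log scale) for 5 gene classes (y axis) in the wild-type (left) and knockout library (right), for all shallow barcodes (filled circles), low-share (squares) and high-share barcodes (triangles), with exact 95% counting intervals. Mitochondrial transcripts lie above 1 and RP and ES transcripts below 1 in each group, and the feeder class lies on opposite sides of 1 for wild-type and knockout high-share barcodes (0.682 and 1.74).

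Low-share barcodes were closer to deep cells gene by gene than high-share barcodes were, over the 7026 genes. At least 2-fold different were 337 higher and 473 lower genes in wild-type low-share barcodes and 242 and 350 in the knockout library. In high-share barcodes the numbers were 819 and 1876, and 990 and 1728. The median of all genes was −0.42 and −0.27 in high-share and −0.02 and −0.05 in low-share barcodes, so part of the lower counts goes with that shift. Raised transcripts had a median log2 ratio of 0.11 and −0.13 in low-share barcodes, and of 4.78 and 4.57 in high-share barcodes, the range that was picked for them. Their summed share in low-share barcodes was still 1.81 (1.74 to 1.89) and 2.38 (2.32 to 2.45) times the deep share. *Pou5f1* was at 0.793 and 0.653 of the deep level in low-share and at 0.283 and 0.255 in high-share barcodes. *Lin28a* was at 0.998 (0.623 to 1.52) and 1.25 in low-share barcodes, on 22 and 18 UMIs, and at 3.54 and 4.69 in high-share barcodes, on 84 and 41 UMIs. *Malat1* was at 1.64 and 2.27 in low-share and 0.960 and 2.16 in high-share barcodes.

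The opposite-strand pairs were also read in the 2 ranges. *Gm37376* and the raised side of each pair are among the transcripts whose share defined the ranges, so a higher share in high-share barcodes follows from that choice and the values are a description. *Gm37376* took 6.08% and 6.07% of the UMIs on it and *Malat1* in low-share barcodes, 81.5% and 65.5% in high-share barcodes, and 11.8% and 15.1% in deep cells. Summed over the 74 raised transcripts with an opposite gene and their 71 opposite genes, the raised side took 6.31% and 6.30% in low-share, 79.9% and 76.9% in high-share barcodes and 9.01% and 10.1% in deep cells. The sum leans on a few genes. *CT010467.1*, *AY036118* and *Gm37376* held 9403, 4754 and 4203 of the 28512 raised-side UMIs in wild-type high-share barcodes. In knockout high-share barcodes they held 8452, 3890 and 1598 of 25222. The first 2 share 1 opposite gene, *Gm42418*. Low-share barcodes, which were chosen for a low share of the same transcripts, lay below the deep cells.

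**Figure D5:**
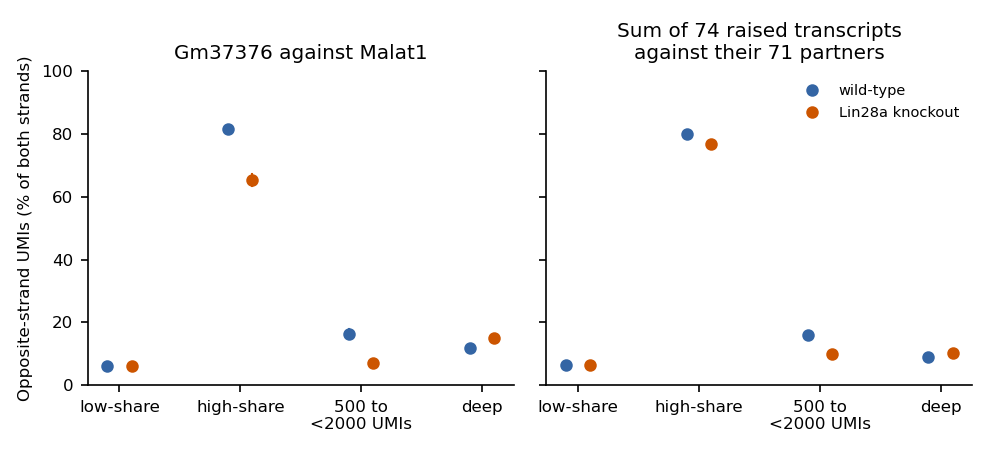
Percent of the UMIs of opposite-strand pairs that fall on the raised side (y axis) in low-share and high-share barcodes, in barcodes with 500 to under 2000 UMIs and in deep cells (x axis), for *Gm37376* against *Malat1* (left) and for 74 raised transcripts against their 71 partners (right), with exact 95% counting intervals mostly smaller than the points. High-share barcodes, chosen for their share of raised transcripts, sit at 65.5% to 81.5% and the other groups at 6.07% to 16.3%.

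The number of different genes at equal depth also differed slightly. Taken at 50 UMIs per barcode, shallow barcodes held a median of 47.5 and 47.9 genes and deep cells 48.7 in each library. Low-share barcodes held 48.4 and 48.2 and high-share barcodes 46.7 and 47.7. All were near the maximum of 50 that this depth allows.

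Feeder collagens were found in few shallow barcodes and were clumped in some of them. *Col1a1* (ENSMUSG00000001506.10, chromosome 11 from 94936224 to 94953042, plus strand), a chain of type I collagen and a fibroblast marker, had 247 UMIs and 564 CPM (496 to 639) in wild-type shallow barcodes against 5539 UMIs and 484 CPM in deep cells, a log2 ratio of 0.22. In the knockout library it had 278 UMIs and 416 CPM (368 to 468) against 1421 UMIs and 161 CPM, a log2 ratio of 1.38. *Col3a1*, of type III collagen, had 16 and 17 UMIs in shallow barcodes and ratios of 0.732 (0.415 to 1.20) and 1.21 (0.690 to 1.99), which do not separate it from the deep level. Without collagen-rich deep cells, described next, *Col1a1* stood at 8.82 and 9.16 and *Col3a1* at 10.7 and 14.0. Of the feeder list, 9 of 26 genes passed the filter, and 1 in the wild-type (*Acta2*, smooth muscle actin, 1.07) and 2 in the knockout library (*Col1a1* and *Col1a2*) were called higher, with medians of −0.19 and 0.31. Without collagen-rich deep cells these medians became 2.43 and 1.34. Shallow barcodes rich in collagen were kept, so leaving out deep cells alone raises these values by itself.

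Deep collagen UMIs came from few cells. Cells with at least 1% of UMIs on *Col1a1*, *Col1a2* and *Col3a1* made up 30 wild-type and 8 knockout deep cells and held 88.4% and 74.2% of the deep collagen UMIs. They had 1 and 0 UMIs of *Pou5f1*, the marker of ES cells. Against the other deep cells, collagen transcripts were 8.88-fold and 9.44-fold higher in shallow barcodes, or 27.3-fold and 19.3-fold when the limit for a collagen-rich cell was 0.5%, and the feeder class was at 2.49 and 2.02 in place of 0.984 and 1.48. The interval of the wild-type ratio of 0.984 already spanned 1. Collagen-rich cells were left out on the deep side only, which by itself raises the values against the other deep cells.

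Most shallow barcodes held no collagen UMI. Of wild-type barcodes 2227 had none, 144 had 1, 40 had 2 and 27 had at least 3, and of knockout barcodes 4094, 165, 26 and 23. At least 1 was found in 8.65% and 4.97% of shallow barcodes at median depths of 148 and 131 UMIs, in 12.5% and 13.2% of the deep cells that were not collagen-rich, at 6468 and 7275 UMIs, and, at 50 UMIs per barcode, in 3.54% and 2.11% against 0.306% and 0.269%. In collagen-rich deep cells it was 66.5% and 63.1%. Deep cells were split by their collagen share and shallow barcodes were not, so the order of these values follows in part from the split. The 10 shallow barcodes with most collagen held 14.9% of these UMIs in wild-type and 26.3% in knockout barcodes, with up to 6 and 16 in a barcode, although they held 0.555% and 0.459% of all shallow UMIs.

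Barcodes with at least 3 collagen UMIs also held other feeder transcripts. In the 27 wild-type barcodes the rest of the feeder list stood at 3216 CPM (1873 to 5149), against 678 CPM in barcodes without collagen. In the 23 knockout barcodes it stood at 6720 CPM (4863 to 9052), against 534 CPM. The ES list stood at 4729 (3061 to 6982) and 3282 CPM (2031 to 5017) against 6648 and 7199 CPM. The knockout high-share barcodes owed 51.5% of their 169 collagen UMIs to 10 barcodes, which bears on their feeder ratio of 1.74.

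A few barcodes held a large share of mitochondrial transcripts. More than 20% of UMIs were mitochondrial in 32 wild-type (1.31%) and 101 knockout shallow barcodes (2.34%), with a highest share of 77.6% and 69.0%. They held 13.9% and 18.4% of the mitochondrial UMIs of all shallow barcodes. The remaining barcodes stood at 2.59% and 3.85%, above the 1.34% and 1.73% of deep cells, so the class was higher without them too. Of these barcodes 0 and 2 were high-share.

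Comparing the libraries, 268 genes were at least 2-fold higher (3.81%) and 207 at least 2-fold lower (2.95%) in knockout than in wild-type shallow barcodes, beside 54 and 139 in deep cells. The shallow profiles hold far fewer UMIs, which can widen their ratios. They also differ in make-up, since high-share barcodes were 46.9% of wild-type and 33.9% of knockout shallow barcodes. Raised transcripts took 10.7% and 6.97% of their UMIs. What part of the calls goes with depth or with make-up was not tested. The 5 lowest were *Gm48431*, *Gm47605*, *Lox*, *Gm48850* and *Gm47106*, at log2 ratios of −2.22 to −2.90. All but *Lox*, which encodes a collagen cross-linking enzyme of fibroblasts, were at least 4-fold higher in shallow barcodes than in deep cells of both libraries. *Lox* had 17 and 4 UMIs, a ratio of 0.154 (0.0377 to 0.472). The 5 highest were *Ndufa2*, *Gm7541*, *Ppp3ca*, *Gpx2* and *Gm4997*. *Ppp3ca*, the catalytic subunit of calcineurin, had 3 UMIs in wild-type and 31 in knockout shallow barcodes, a ratio of 6.77 (2.11 to 34.6), and 0.960 in deep cells. *Gpx2*, a glutathione peroxidase, had 5 and 44 UMIs, a ratio of 5.76 (2.29 to 18.6), and 2.74 in deep cells. *Ndufa2*, a complex I subunit, had 0 UMIs in wild-type and 16 in knockout shallow barcodes, beside 415 and 437 in deep cells.

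The named transcripts were also compared between the libraries at both depths. *Malat1* was lower in knockout than in wild-type shallow barcodes, with a ratio of 0.613 (0.579 to 0.648), and in deep cells, with a ratio of 0.362 (0.356 to 0.369). *Col1a1* was at 0.737 (0.619 to 0.878) and 0.332 (0.313 to 0.352). Its deep ratio rests on the 30 and 8 collagen-rich cells, without which deep cells held 64.0 CPM for the wild type and 45.4 CPM for the knockout. Its shallow ratio joins 0.460 (0.363 to 0.581) in low-share and 1.53 (1.15 to 2.06) in high-share barcodes. The UMIs were clumped, which these intervals do not cover, and 10 barcodes held 51.5% of the collagen UMIs of knockout high-share barcodes. At least 1 *Col1a1* UMI was found in 3.90% of knockout and 4.28% of wild-type high-share barcodes. *Pou5f1* was at 1.15 (0.961 to 1.38) and 1.24 (1.20 to 1.27), of which the first does not exclude 1. It was at 1.02 (0.826 to 1.26) in low-share and 1.11 (0.763 to 1.64) in high-share barcodes. *Lin28a*, at 0.378 over all shallow barcodes, was at 0.427 (0.216 to 0.835) in low-share and 0.451 (0.302 to 0.662) in high-share barcodes. For both genes the value over all shallow barcodes lay outside those of the 2 ranges, whose proportions differ between the libraries. The shallow ratio for *Malat1* joins 0.501 (0.466 to 0.539) in low-share and 0.814 (0.741 to 0.894) in high-share barcodes. Its wild-type deep level of 4485 CPM includes the 30 collagen-rich cells, at 22408 CPM, and was 3973 CPM without them. These intervals cover counting error in 1 library of each genotype.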

How the data were processed

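The data were 2 single-cell inDrop libraries. The authors followed an earlier inDrop pipeline to obtain expression matrices, and the deposited values are raw UMI counts per gene and barcode, without normalization. The aligner and annotation are not given in the sources used here. The submitters' processing notes name mm10 and Seurat 2.3.4. Of 54146 gene identifiers 54079 matched GENCODE M21 (GRCm38), 52480 of them with the version, and 67 unmatched genes held 0.0275% and 0.0284% of UMIs. Names, coordinates, exons and transcript sequences are from that annotation. The files count 63462 wild-type and 58924 knockout UMIs as ambiguous between genes in a column of their own. Whether counts per barcode include them is not given in the sources used here, and they led to no change in a count. Cell doublets were not removed. Repeat elements were not analysed here.

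Counts were summed over shallow barcodes and over deep cells of each library and scaled to CPM. Intervals are exact Poisson for CPM, Clopper-Pearson for shares and exact conditional for ratios of counts, at 95%. UMIs collapse PCR copies, and intervals cover counting error only. The limit for a count of 0 was set at 3 counts. Log2 ratios had 0.5 added to each count, and genes with a mean of at least 20 CPM over the 4 profiles were kept. Medians of genes per barcode at 50 UMIs used the hypergeometric expectation. The calculation was tested on simulated data.

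The members and gene lists were chosen with earlier results of these data known. Genes named are the markers with *Col3a1*, *Zfp42* and *Lin28a*, the 12 highest and 12 lowest by the ratio nearer to 1 of both libraries, the 5 highest and lowest between genotypes, and of each list the 2 to 4 members with the highest CPM and those past 2-fold in both libraries. *CT010467.1*, *AY036118*, *Gm37376*, the 2 groups with shared stretches and *Gm26870*, *Neat1*, *Tsix*, *Meg3*, *Sall4*, *Dppa4* and the opposite-strand pairs were added after their values were seen. Other limits, comparison cells, filters and scalings were tried. Scripts ran in Python 3.11.15 with pandas 2.3.3, scipy 1.17.1, matplotlib 3.10.9 and numpy 2.4.6.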

Additional observations from a re-analysis of the deposited data

Results flagged for a closer look

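Some ratios of shallow barcodes over deep cells lay on opposite sides of 1 in the 2 libraries. None of these differences between the libraries was tested. The feeder class stood at 1.48 in the knockout and 0.984 in the wild-type library over all shallow barcodes, and at 1.74 and 0.682 in high-share barcodes. *Col1a1* in high-share barcodes was at 3.32 in the knockout and 0.717 in the wild-type library, and *Col3a1* over all shallow barcodes at 1.21 and 0.732, on 17 and 16 UMIs. The wild-type deep value of these genes rests on 30 collagen-rich cells. Without collagen-rich deep cells the feeder class stood above 1 in both libraries, at 2.02 and 2.49. Such cells were left out on the deep side only, which by itself raises the ratio. *Malat1* in high-share barcodes was at 2.16 in the knockout and 0.960 in the wild-type library. *Lin28a* in low-share barcodes was at 1.25 in the knockout library on 18 UMIs and 0.998 in the other on 22 UMIs.

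Barcodes outside both depth ranges also held signal. In barcodes of under 50 UMIs, mitochondrial transcripts took 11.4% of knockout and 5.90% of wild-type UMIs. In barcodes of 500 to under 2000 UMIs, RP transcripts took 8.02% and 7.73% and mitochondrial transcripts 4.78% and 2.89% in the knockout and wild-type library.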

How the results depend on the processing

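Values without a call crossed between higher and lower in 2 lists and 1 transcript, and the median of all genes crossed 0. That median went from −0.19 and −0.08 to 0.04 and 0.03 with median of ratios scaling, and to 0.17 in each library without the filter. The wild-type feeder ratio went from 0.984 to 2.49 without collagen-rich deep cells and to 1.001 to 1.33 under 3 other alternatives, its list median from −0.19 to 0.02 with a minimum of 50 CPM, 0.03 with median of ratios scaling and 2.43 without collagen-rich cells, and the knockout ES median from −0.08 to 0.02 with that scaling. Wild-type *Col3a1* went from 0.732 to 10.7 without collagen-rich deep cells and to 1.03 with means of per-barcode shares. No called value changed direction under the alternatives that were run. Of the class ratios 63 of 98 alternatives stayed within the counting interval, as did 108 of 120 for named transcripts. Counts of genes have no interval and were held to a looser limit on their fold change. By these rules 55 of 65 counts over all genes and 17 of 18 comparisons of the libraries stayed within their limits. The looser limit let the 268 genes higher in knockout shallow barcodes range from 242 to 384, and the 122 raised transcripts fall to 83. Of the list medians 176 of 182 stayed within their interval, which is wide for lists of few genes. The replication histone median of −2.08 and −1.50 became −2.88 and −2.75 with a minimum of 50 CPM and −1.63 and −0.07 without the filter. The values outside their intervals follow, and the cause was not tested. No paired analysis was possible because each genotype has 1 library.

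With an upper limit of 250 UMIs, RP stood at 0.610 (wild-type) and 0.561 (knockout), mitochondrial transcripts at 2.43 and 2.59, nuclear lncRNAs at 1.46 and 1.88 and feeder genes at 1.11 and 1.38, the knockout RP median became −0.99, and 312 in place of 207 genes were lower in the knockout library. Means of per-barcode shares gave 0.611 and 0.573 for RP, 2.36 and 2.83 for mitochondrial transcripts, 1.42 and 1.74 for nuclear lncRNAs and 1.33 and 1.37 for feeder genes. Without mitochondrial genes in the total, RP stood at 0.606 and 0.621 and knockout ES at 0.850. Without shallow barcodes over 20% mitochondrial, mitochondrial transcripts stood at 1.94 and 2.23 and knockout RP at 0.609. With at least 100 UMIs, mitochondrial transcripts stood at 2.14 and 2.47 and knockout nuclear lncRNAs at 2.02. Against deep cells of at least 5000 UMIs, mitochondrial transcripts stood at 2.28 and 2.70, knockout nuclear lncRNAs at 2.03 and wild-type feeder genes at 0.899. Against deep cells of at least 500 UMIs, knockout RP, mitochondrial transcripts and nuclear lncRNAs stood at 0.613, 2.48 and 1.78. Without collagen-rich deep cells, feeder genes stood at 2.49 and 2.02, the feeder medians became 2.43 and 1.34 and wild-type nuclear lncRNAs stood at 1.48. Named transcripts moved too. Without collagen-rich deep cells *Col1a1* stood at 8.82 and 9.16, *Col3a1* at 10.7 and 14.0 and wild-type *Malat1* at 1.48. Wild-type *Malat1* and *Col1a1* stood at 1.51 and 1.40 with the upper limit of 250 UMIs and at 1.44 and 1.83 with per-barcode means. Knockout *Malat1* stood at 2.02 with per-barcode means, at 2.32 against deep cells of at least 5000 UMIs and at 1.99 against those of at least 500 UMIs, which ends its 2-fold call. Knockout *Pou5f1* lost its call at 0.507 against deep cells of at least 500 UMIs, at 0.508 without mitochondrial genes and at 0.525 with per-barcode means. With a limit of 0.5% for a collagen-rich cell, collagen was 27.3-fold and 19.3-fold higher than in other deep cells.

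Median of ratios scaling gave RP medians of −0.64 and −0.73, a wild-type mitochondrial protein median of 1.54, a wild-type nuclear respiratory median of −0.58 and 411 wild-type genes lower. A minimum of 50 CPM gave a knockout feeder median of 1.07 in place of 0.31 and left 288 higher and 351 lower wild-type genes and 334 and 248 knockout genes. Without the filter there were 4601 and 1405, and 4192 and 1239, and 411 genes were at least 8-fold higher in both. Alternatives for the high-share range and for genes opposite an abundant one were added after seeing the data. With a filter on the deep level alone, the medians of the latter went from 1.85 and 1.63 to 0.32 and 0.26, since fewer genes of low deep level passed, and the share with an opposite overlap from 60.7% to 45.7% of raised transcripts and from 11.4% to 8.34% of others. A limit of 5% gave 50.2% and 40.5% of barcodes, 15% gave 37.7% and 18.3%, and genes picked in the other library gave 36.4% of knockout barcodes. Depth limits single genes, since the median gene had 22 wild-type and 34 knockout UMIs in shallow barcodes.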

Other observations

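Nuclear lncRNAs were not highest in the shallowest barcodes. In barcodes with 1000 to under 2000 UMIs they took 1.52% of UMIs for the wild type (68 barcodes) and 1.03% for the knockout (207 barcodes), against 0.823% and 0.584% in shallow barcodes and 0.610% and 0.300% in deep cells. The raised transcripts took 0.982% and 1.12% of UMIs in those barcodes, and 21.6% and 7.48% in barcodes under 50 UMIs, of which there were 34 and 115.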
